A study of Mus musculus with 24 samples.

Results

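Transcript levels of 9 mouse genes, the vascular endothelial growth factor (VEGF) ligands Vegfa, Vegfb, Vegfc and Pgf and their receptors Kdr, Flt1, Flt4, Nrp1 and Nrp2, were followed in endothelial cells (EC) and stroma of the bone marrow. The members were taken by gene symbol, and all 9 were found among the 23879 genes of every library. The 24 RNA libraries came from C57BL/6J mice and fell into 8 groups of 3. Marrow EC and marrow stroma were each sequenced after culture with hematopoietic stem and progenitor cells (HSPC, as in the titles; other labels say HSCs), in the same culture series alone, directly from the marrow (in vivo), and from another culture, called the first culture here. All 18 culture libraries carry the name Akt1 in their titles, with no statement of what was done to this kinase, and the 6 in vivo titles do not. In any comparison of in vivo with cultured cells, whatever this name stands for and the isolation from the marrow cannot be told apart. The column headers of the in vivo EC tables call those cells young, a word that no other group carries, and no age is stated for any group. Pooling of animals and the source of the replicates are not given in the sources used here, so p-values reflect only how much the 3 libraries in each group varied, which may be technical.

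VEGF ligands are secreted dimers that drive the growth, survival and permeability of blood and lymphatic vessels. Vegfa signals mainly through the receptor kinase Kdr (VEGFR2), while Flt1 (VEGFR1) binds Vegfa, Vegfb and Pgf tightly and is known as a decoy with weak kinase activity. Flt4 (VEGFR3) is the receptor of Vegfc and is used by lymphatic vessels and by sinusoids of the marrow, and the neuropilins Nrp1 and Nrp2 are co-receptors that also bind class 3 semaphorins.

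Expression was deposited as FPKM, a fragment count divided by transcript length and by sequencing yield, so levels of different genes can be set side by side per length. Library totals ran from 1421447 to 1808592 FPKM, read depth is unknown, and the spread between 3 libraries was the only error that could be measured. Endothelial markers were listed higher in EC in all 4 settings, with sums of 12636 to 27190 FPKM over 14 genes in EC libraries and 61.7 to 428 FPKM in stromal libraries. The correlation across genes between libraries of a group was 0.99 or higher in 6 groups, 0.962 to 0.972 in first-culture EC and 0.954 to 0.993 in first-culture stroma. Replicates thus agreed least in the first-culture groups, although the closest stromal pair there reached 0.993. In first culture 3 libraries (EC replicates 2 and 3 and stroma replicate 3) carry Xist, the RNA of the inactive X chromosome, while all other libraries hold it near 0. The results that rest on them are given with and without them where the call or the direction moved. The kinase Akt1 itself averaged 1814 FPKM in EC with HSPC, 1104 FPKM in EC alone and 445 FPKM in EC in vivo.

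The promoters of 4 members, Vegfa and the 3 receptor kinases, are shown. All 4 were called with HSPC in EC, where Kdr fell and the other 3 rose. In stroma the same 3 rose and Kdr did not pass. Pgf, Nrp1 and Nrp2 were also called in both cell types, and their promoters are not shown. The windows are RefSeq sequences of build GRCm38.p6, from 250 bases before to 50 bases after the annotated start, read 5′ to 3′ on the strand of the gene, and all 9 members had at least 1 window. Capitals mark matches, on either strand, to the core of the hypoxia response element (ACGTG), to an ETS site (CCGGAA) and to an Sp site (GGGCGG), each spelled out in full and allowed to overlap.
Vegfa, chr17:46032328-46032627, minus strand: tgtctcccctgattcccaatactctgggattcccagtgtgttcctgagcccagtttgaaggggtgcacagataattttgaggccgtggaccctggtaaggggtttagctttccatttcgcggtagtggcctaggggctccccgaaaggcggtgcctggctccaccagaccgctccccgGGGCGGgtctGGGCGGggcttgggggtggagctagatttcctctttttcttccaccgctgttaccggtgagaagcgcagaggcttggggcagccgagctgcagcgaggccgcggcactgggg
Flt1, chr5:147725962-147726261, minus strand: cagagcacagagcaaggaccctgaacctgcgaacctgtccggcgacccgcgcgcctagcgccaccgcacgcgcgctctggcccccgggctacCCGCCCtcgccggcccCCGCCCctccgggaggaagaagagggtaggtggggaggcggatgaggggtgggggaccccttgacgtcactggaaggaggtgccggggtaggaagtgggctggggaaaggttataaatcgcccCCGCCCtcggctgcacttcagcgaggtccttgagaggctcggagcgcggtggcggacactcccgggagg
Flt4, chr11:49609429-49609728, plus strand: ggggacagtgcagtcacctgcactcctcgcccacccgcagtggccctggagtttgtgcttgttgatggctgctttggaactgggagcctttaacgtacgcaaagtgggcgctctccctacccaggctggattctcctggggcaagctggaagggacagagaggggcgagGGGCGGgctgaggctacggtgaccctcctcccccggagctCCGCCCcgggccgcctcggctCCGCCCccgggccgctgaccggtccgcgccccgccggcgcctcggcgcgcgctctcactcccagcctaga
Kdr, chr5:75978406-75978705, minus strand: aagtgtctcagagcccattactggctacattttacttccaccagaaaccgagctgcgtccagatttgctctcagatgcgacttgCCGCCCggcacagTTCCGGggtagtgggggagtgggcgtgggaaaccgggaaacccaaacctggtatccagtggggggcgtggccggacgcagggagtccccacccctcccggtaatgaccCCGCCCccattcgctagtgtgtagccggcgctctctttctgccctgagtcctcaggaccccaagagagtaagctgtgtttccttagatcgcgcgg
The Sp letters occurred 2 times in the Vegfa window, 3 times in Flt1, 3 times in Flt4 and 2 times in Kdr, and 35.7% of all 32851 promoter windows held them at least once. The ETS letters, found in 14.9% of all windows, occurred once in the Kdr window and in none of the other 3. The ACGTG core, held by 19.6% of all windows, was in none of these 4 windows. Vegfa has another annotated start, at chr17:46025114-46025413, and that window, not shown, held the ACGTG core once and the Sp letters once. A match is only a description of these letters in this window.

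Vegfa was the most abundant ligand transcript in 7 of the 8 groups and was highest in stroma. In EC it averaged 241 ± 10.4 FPKM with HSPC, 52.2 ± 3.47 alone and 109 ± 7.97 in vivo (SD, n = 3 each). The first-culture EC libraries had 120.2, 120.0 and 600.1 FPKM, so that their mean rests on replicate 3. In stroma Vegfa averaged 1583 ± 187 FPKM with HSPC, 242 ± 8.74 alone, 789.5 ± 89.5 in vivo and 302 ± 61.4 in first culture (SD, n = 3 each). From the top, stroma with HSPC and stroma in vivo stood apart from the next group, the 4 groups from first-culture stroma to EC with HSPC overlapped their neighbours, and EC in vivo and EC alone were the lowest.

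**Figure D1:**
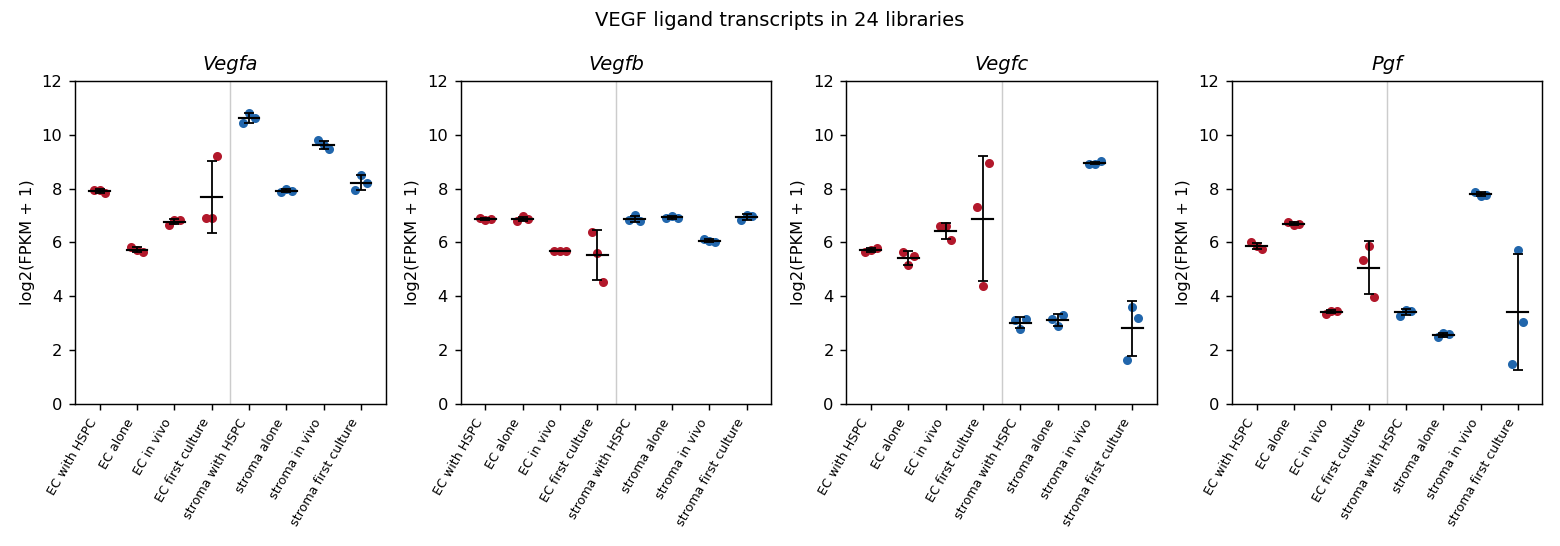
Levels of the 4 VEGF ligands as log2(FPKM + 1), with 1 point per library (red EC, blue stroma) and the mean ± SD of 3 libraries in black. Vegfa is highest in stroma with HSPC, Vegfc and Pgf in stroma in vivo, and the first-culture groups spread widely.

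Vegfb, a ligand of Flt1 linked to tissue metabolism, was the flattest of the ligands. It averaged 115 to 123.1 FPKM in EC with HSPC, EC alone and the 3 cultured stromal groups, whose libraries overlapped. It was lower in vivo, with 50.1, 50.2 and 49.7 FPKM in EC and 69.5, 65.0 and 63.9 FPKM in stroma. First-culture EC ran from 22.4 to 83.4 FPKM.

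Vegfc, the ligand of Flt4, was held at a high level by a single stromal group. EC had 48.5 to 54.4 FPKM with HSPC, 34.5 to 49.4 alone and 67.7 to 96.9 in vivo. Stroma in vivo had 483, 487 and 515 FPKM, and every cultured stromal library had 11.1 FPKM or less. The first-culture EC libraries disagreed most, at 160.0, 19.6 and 492 FPKM, so their range reached that of stroma in vivo.

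Pgf (placental growth factor), a ligand of Flt1, changed its main source between settings. In vivo it had 9.23, 9.97 and 9.98 FPKM in EC, the lowest mean of any EC group, against 236, 214 and 218 FPKM in stroma. In the co-culture series the order was turned round, with 53.7 to 63.0 FPKM in EC with HSPC and 98.5 to 109 FPKM in EC alone, above 8.75 to 10.1 FPKM in stroma with HSPC and 4.58 to 5.24 FPKM in stroma alone. First-culture stroma held 1.8, 51.9 and 7.17 FPKM, so replicate 2 alone reached the EC libraries of that culture (14.7 to 56.9 FPKM).

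Kdr was the main receptor kinase of EC and was close to absent from the stromal tables. EC in vivo had 2356, 2410 and 2489 FPKM, EC with HSPC 711, 678 and 705, and EC alone 1284, 1299 and 1211. First-culture EC had 968, 648 and 151 FPKM. Stroma was listed at 0 in 2 of 3 libraries with HSPC (the other 0.77 FPKM), in all 3 alone and in 2 of 3 in vivo (the other 0.62 FPKM), and reached 3.06 FPKM in first culture. The 3 EC groups outside the first culture did not overlap each other.

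Flt1 and Flt4 had the same top group as Kdr and another order below it. Flt1 had 741, 709 and 824 FPKM in EC in vivo, 328, 331 and 292 in EC with HSPC and 125, 118 and 124 in EC alone, and ran from 203 to 419 FPKM in first-culture EC. Flt4 had 1136, 1204 and 1391 FPKM in EC in vivo, 192, 202 and 196 in EC with HSPC and 90.2, 88.0 and 89.7 in EC alone. For both genes EC with HSPC lay above EC alone, and for Kdr below it. First-culture EC had 61.8, 71.8 and 12.9 FPKM of Flt4. In stroma Flt1 did not exceed 5.61 FPKM, and Flt4 did not exceed 2.57 FPKM except in first-culture stroma replicate 1, which had 32.0 FPKM. That library also had the largest sum of endothelial markers in stroma, 428 FPKM, and its part in the Flt4 value was not tested.

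**Figure D2:**
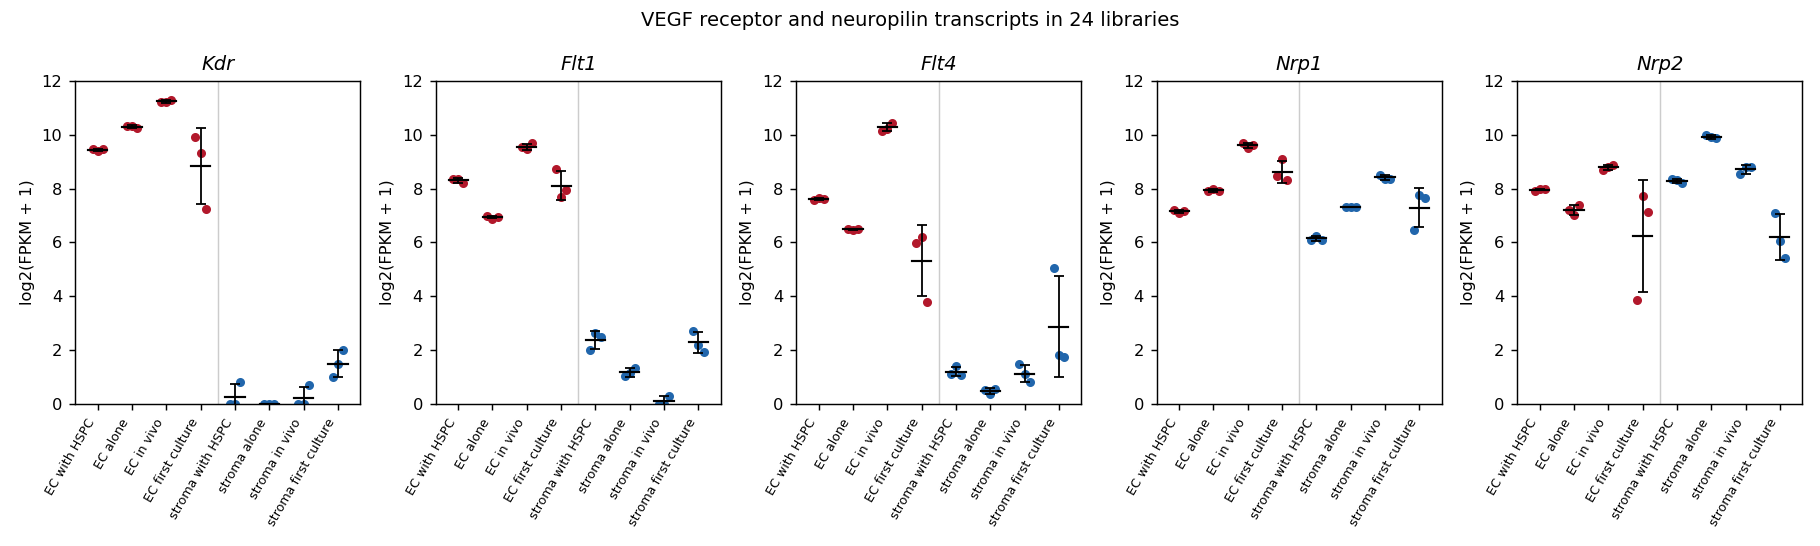
Levels of the 3 receptor kinases and 2 neuropilins as log2(FPKM + 1), with 1 point per library (red EC, blue stroma) and the mean ± SD of 3 libraries in black. The kinases are near 0 in stroma and highest in EC in vivo, while both neuropilins are present in all 8 groups.

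The neuropilins were carried by both cell types. Nrp1 averaged 142 FPKM in EC with HSPC, 245 in EC alone, 780.2 in EC in vivo and 405 in first-culture EC. In stroma it averaged 70.5 FPKM with HSPC, 159 alone, 341 in vivo and 168 in first culture. First-culture EC overlapped stroma in vivo, and first-culture stroma overlapped stroma alone. Nrp2 had 325, 320.3 and 296 FPKM in stroma with HSPC, against 1029, 961 and 935 FPKM in stroma alone, where it was highest. It averaged 249 FPKM in EC with HSPC and 147 in EC alone. In vivo it was nearly level, at 412 to 470.1 FPKM in EC and 368 to 450.1 FPKM in stroma. Nrp1 made up 36.2% of the summed neuropilin FPKM in EC with HSPC, 62.5% in EC alone and 63.8% in EC in vivo, and 18.3% in stroma with HSPC and 14.01% in stroma alone.

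Set side by side, the receptor kinases summed highest in EC in all 4 settings and the ligands in stroma in 3 of 4. The 3 receptor kinases summed to 4233 to 4705 FPKM in EC in vivo, 1193 to 1232 in EC with HSPC and 1425 to 1505 in EC alone, and to at most 38.6 FPKM in any stromal library. The 4 ligands summed to 452 to 477 FPKM in EC with HSPC, 309 to 324 in EC alone and 239.9 to 270.4 in EC in vivo. In stroma they summed to 1530 to 1919 FPKM with HSPC, 368 to 389.7 alone and 1503 to 1673 in vivo. In first culture the ligand sums overlapped, with 245 to 1129 FPKM in EC (mean 592) and 361 to 559 FPKM in stroma (mean 453). First-culture EC replicate 3 combined the largest ligand sum of any EC library, 1129 FPKM, with the smallest kinase sum, 410.1 FPKM.

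**Figure D3:**
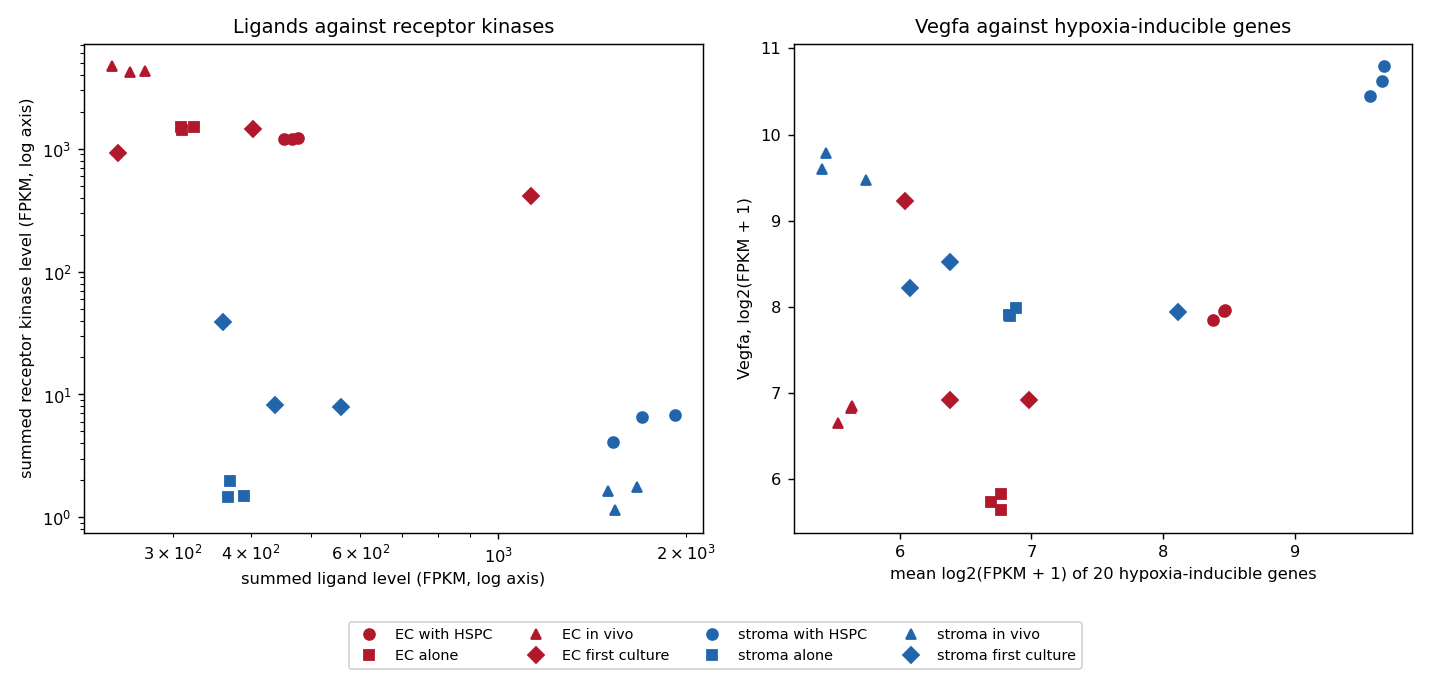
Left, summed FPKM of the 3 receptor kinases against that of the 4 ligands in each library, both on log axes; right, Vegfa against the mean of 20 hypoxia-inducible genes, both as log2(FPKM + 1) (red EC, blue stroma, symbols for the setting). EC and stroma fall apart on the kinase axis, and stroma with HSPC is highest on both axes of the right panel while stroma in vivo pairs high Vegfa with low hypoxia-inducible genes.

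The first question was whether ligands and receptors differed between the cell types in each setting. A gene was called at an adjusted p under 0.05 over all tested genes. In vivo 7 of 9 members were called, 4 higher and 3 lower in EC, where 49.3% of all tested genes were called (25.0% higher, 24.2% lower). The receptor kinases were higher in EC, by 11.01 ± 0.57 for Kdr, 9.46 ± 0.27 for Flt1 and 9.15 ± 0.85 for Flt4 on the log2(FPKM + 1) scale (± SE, n = 3 per group), and Nrp1 by 1.19 ± 0.32. The ligands Vegfa, Vegfc and Pgf were lower in EC, by -2.84 ± 0.50, -2.52 ± 0.93 and -4.38 ± 0.86. The Vegfc call had an adjusted p of 0.0443, and was lost with each in vivo library and 3 of the first-culture ones left out in turn (EC replicate 1, stroma replicates 2 and 3; adjusted p 0.0505 to 0.117). It was also lost with a pseudocount of 0.1 (adjusted p = 0.0568) and with the replicate number as a block (adjusted p = 0.059). Vegfb (-0.40 ± 0.35) and Nrp2 (0.08 ± 0.81) did not pass. The Vegfb libraries of EC and stroma did not overlap, and Vegfb was called with the spread taken from the compared groups alone (adjusted p = 0.000743), with a weight per group (0.0123) and without the 3 libraries that carry Xist (0.00515).

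In first culture 6 of 9 members were called, 5 higher and 1 lower in EC, with 38.7% of all tested genes called (20.1% higher, 18.6% lower). Kdr was higher in EC by 7.34 ± 0.57, Flt1 by 5.83 ± 0.27, Vegfc by 4.08 ± 0.93, Flt4 by 2.45 ± 0.85 and Nrp1 by 1.34 ± 0.32, and Vegfb was lower by -1.43 ± 0.35. Vegfa, Pgf and Nrp2 did not pass. Vegfa was -0.54 ± 0.50 with all libraries and -1.30 (adjusted p = 0.00032) without EC replicate 3. Pgf was 1.65 ± 0.86 with all libraries and 2.80 (adjusted p = 0.00448) without stroma replicate 2. Nrp2 was 0.05 ± 0.81, but 1.24 (adjusted p = 0.0351) without EC replicate 1. Without the 3 libraries that carry Xist, EC replicate 1 is the only EC library of this culture. There Nrp2 was -2.70, Vegfa -1.31, Flt4 2.53 and Nrp1 1.36, and no call is given for 1 library. The Flt4 call was lost with any of 10 libraries left out, that is all of the fit except EC replicate 3 and stroma replicate 1 of the first culture (adjusted p 0.0558 to 0.148). With the spread taken from the compared groups alone, only Kdr and Flt1 were still called.

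In the co-culture series 8 of 9 members were called with HSPC present and 8 of 9 alone, each time 6 higher and 2 lower in EC. Calls were common there, with 85.1% of all tested genes called with HSPC (46.6% higher, 38.6% lower) and 83.3% alone (42.0% higher, 41.3% lower). The 6 genes higher in EC were Vegfc, Pgf, Kdr, Flt1, Flt4 and Nrp1 in both settings. Vegfa was lower in EC by -2.71 ± 0.08 with HSPC and -2.20 ± 0.08 alone, and Nrp2 by -0.33 ± 0.08 and -2.72 ± 0.08. Vegfc was higher in EC by 2.69 ± 0.15 with HSPC and 2.32 ± 0.15 alone, where in vivo it was lower in EC. Vegfb differed by -0.01 ± 0.06 with HSPC and -0.06 ± 0.06 alone and did not pass. The Nrp2 call with HSPC was lost when all 8 groups shared the spread (adjusted p = 0.684).

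The next question was how each cell type changed with HSPC. In EC, 7 of 9 members changed, 4 rising and 3 falling, where 48.6% of all tested genes were called (28.3% higher, 20.3% lower). Vegfa had 248, 246 and 229 FPKM in EC with HSPC, against 55.6, 52.2 and 48.7 FPKM in EC alone, and rose by 2.19 ± 0.08 on the log2 scale (4.61-fold; adjusted p = 1.91e-09). The groups did not overlap for any of the 7 genes. Flt1 rose by 1.37 ± 0.14 (2.60-fold of the means), Flt4 by 1.13 ± 0.09 (2.21-fold) and Nrp2 by 0.76 ± 0.08 (1.69-fold). Kdr fell by 0.86 ± 0.17, Pgf by 0.83 ± 0.08 and Nrp1 by 0.79 ± 0.05. Vegfc (0.28 ± 0.15; adjusted p = 0.145) and Vegfb (-0.01 ± 0.06) did not pass, and with the replicate number as a block Vegfc was called (adjusted p = 0.047). The Kdr call was lost with a pseudocount of 0.1 (adjusted p = 0.317), while the difference itself stayed at -0.86. The stromal libraries, at 0.77 FPKM of Kdr or less, share the estimate of the spread in that fit. Kdr, Pgf, Flt4 and Nrp2 lost their calls when all 8 groups shared the spread (adjusted p 0.267 to 0.549).

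The makeup of the receptor kinases in EC shifted with these changes. Kdr made up 57.6% ± 1.57 of the summed kinase FPKM in EC with HSPC and 85.7% ± 0.66 in EC alone, while Flt1 made up 26.2% ± 1.49 and 8.28% ± 0.44 (SD, n = 3 each). The ratio of Flt1 to Kdr was 0.414 to 0.489 with HSPC and 0.0905 to 0.102 alone. For comparison it was 0.294 to 0.331 in EC in vivo, where Flt4 took 28.1% of the kinase sum, against 6.05% in EC alone. First-culture EC replicate 3 was the only EC library in which Flt1 exceeded Kdr, with a ratio of 1.64.

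**Figure D4:**
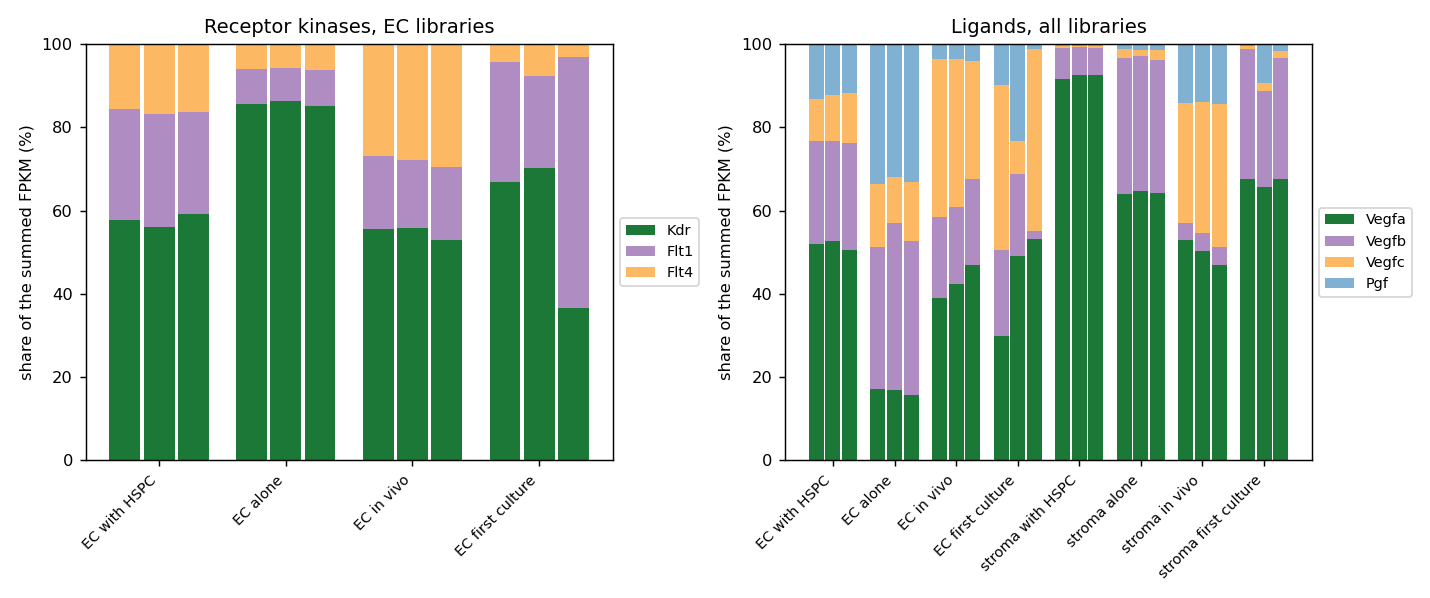
Share of each receptor kinase in the summed kinase FPKM of EC libraries (left) and of each ligand in the summed ligand FPKM of all libraries (right), in percent, with 1 bar per library. Kdr takes 56.0% to 59.1% of the kinases in EC with HSPC and 85.0% to 86.3% in EC alone, and Vegfa takes 91.6% to 92.5% of the ligands in stroma with HSPC.

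In stroma 6 of 9 members changed with HSPC, 4 rising and 2 falling, where 61.0% of all tested genes were called (25.6% higher, 35.4% lower). Vegfa had 1401, 1775 and 1574 FPKM in stroma with HSPC, against 236, 252 and 238 FPKM in stroma alone, and rose by 2.70 ± 0.08 (6.54-fold; adjusted p = 2.59e-10). Its share of the ligand sum was 92.2% ± 0.52 with HSPC and 64.4% ± 0.32 alone (SD, n = 3 each). Pgf rose by 0.84 ± 0.08, to 8.75, 10.1 and 10.03 FPKM with HSPC, against 4.58, 5.24 and 5.02 FPKM alone, and remained a minor ligand. Nrp2 fell by 1.63 ± 0.08 (the means were 314 FPKM with HSPC and 975 FPKM alone), and Nrp1 fell by 1.16 ± 0.05 (70.5 and 159 FPKM). Flt1 (4.25 and 1.26 FPKM) and Flt4 (1.30 and 0.39 FPKM) rose by 1.198 ± 0.14 and 0.72 ± 0.09 at levels near the floor of the table. Kdr (0.28 ± 0.17), Vegfb (-0.06 ± 0.06) and Vegfc (-0.10 ± 0.15) did not pass, except Vegfb without stroma with HSPC replicate 2 (-0.13, adjusted p = 0.0446). When all 8 groups shared the spread, Vegfa, Flt1 and Nrp1 were still called, while Pgf, Flt4 and Nrp2 were not (adjusted p 0.0611 to 0.486).

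Transcripts of other cells moved with the HSPC groups. The 9 granulocyte markers summed to 1736 to 1959 FPKM in EC with HSPC and 49.6 to 57.4 FPKM in EC alone, and to 679.6 to 888 FPKM in stroma with HSPC, against 0 in stroma alone. Of 10 blood cell markers, 9 rose in EC and 10 in stroma, with sums of 342 to 376 FPKM in EC with HSPC, 204 to 210.0 FPKM in EC alone, 31.0 to 39.3 FPKM in stroma with HSPC and 1.2 to 2.7 FPKM in stroma alone. Ptprc, Cd53, Vav1, Was and Rac2 were listed at 0 in EC alone and in stroma alone. Endothelial markers summed to 77.6 to 114 FPKM in stroma with HSPC and 61.7 to 63.7 FPKM in stroma alone, and 6 of 14 rose. Of the 14, 10 were listed at 0 in all 3 libraries of stroma alone and 5 in all 3 of stroma with HSPC. Over all tested genes 28.3% were higher with HSPC in EC and 25.6% in stroma. The part of these cells in the changes of the VEGF genes was not tested, and in bulk samples fewer cells of a type and less RNA per cell cannot be told apart.

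The change with HSPC differed between the cell types for 6 of 9 members, where 57.0% of all tested genes were called for this difference (36.0% higher, 21.1% lower). Nrp2 rose in EC and fell in stroma, a difference of 2.39 ± 0.11 between the 2 changes. Pgf fell in EC and rose in stroma (-1.67 ± 0.11). Vegfa rose in both, by less in EC (-0.51 ± 0.11), and Nrp1 fell in both, by less in EC (0.38 ± 0.07). The differences of Kdr (-1.13 ± 0.24) and Flt4 (0.41 ± 0.12) set EC against stromal values near 0. With a pseudocount of 0.1 the Kdr call was lost (adjusted p = 0.105) and the difference of Flt4 turned to -0.38 (adjusted p = 0.179). When all 8 groups shared the spread, limma called 0 of the 9 members (adjusted p 0.0712 to 0.856 for these 6), with 1 at an unadjusted p under 0.05.

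**Figure D5:**
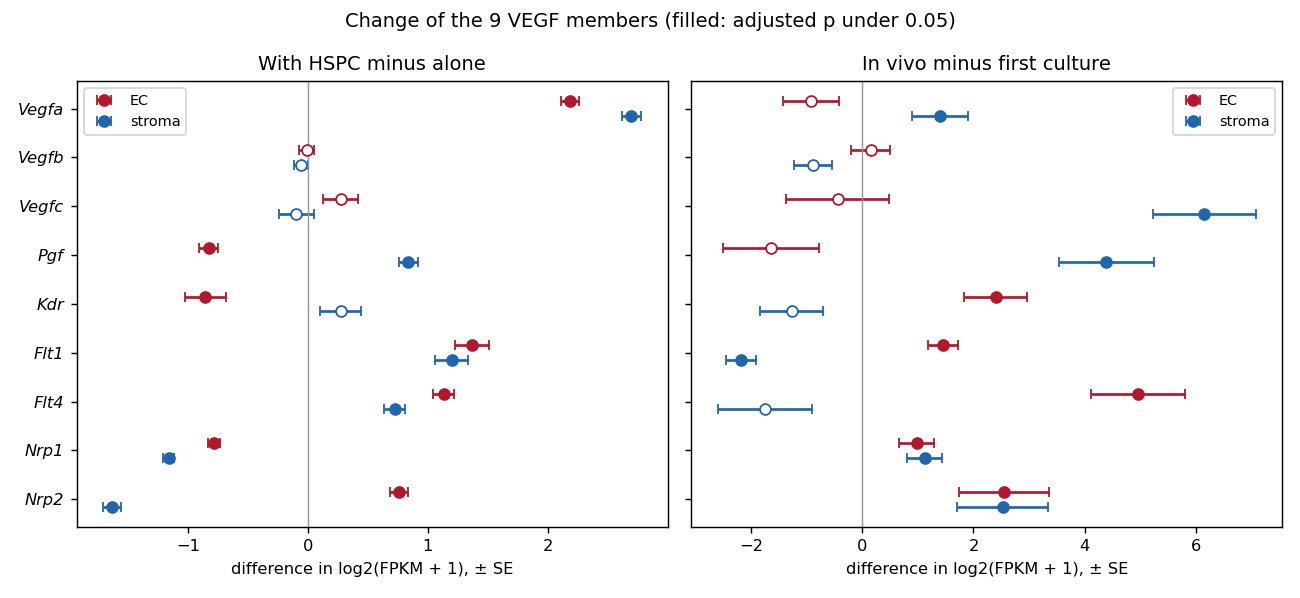
Difference in log2(FPKM + 1) ± SE for the 9 members with HSPC minus alone (left) and in vivo minus first culture (right), in EC (red, upper of each pair) and stroma (blue), with filled points at an adjusted p under 0.05. Vegfa rose with HSPC in both cell types, Nrp2 moved in opposite directions, and all 5 receptors were higher in EC in vivo than in first-culture EC.

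The last question was how cells in the marrow differed from cells in culture. In EC, 5 of 9 members were called, all of them receptors and all higher in vivo, where 53.3% of all tested genes were called (23.6% higher, 29.8% lower). Flt4 was higher by 4.96 ± 0.85 (means of 1244 FPKM in vivo and 48.8 FPKM in first culture), Nrp2 by 2.55 ± 0.81, Kdr by 2.41 ± 0.57, Flt1 by 1.45 ± 0.27 and Nrp1 by 0.98 ± 0.32. Libraries did not overlap for any of these 5. First-culture EC replicate 3 weighed on 2 of them: without it Flt4 was 4.197 and Kdr 1.61 higher, both still called. The Nrp1 call was lost without EC replicate 1 or 3 of either setting (adjusted p 0.0575 to 0.0731). Nrp1 was 1.13 higher without the 3 libraries that carry Xist, which leaves 1 first-culture EC library. Nrp2 was no longer called without any 1 of the EC in vivo libraries (adjusted p 0.0522 to 0.0588), and was 1.37 higher (adjusted p = 0.0179) without first-culture EC replicate 1, which had 13.7 FPKM. Against EC alone the same 5 receptors were higher in vivo, Flt4 by 3.78, Flt1 by 2.62, Nrp1 by 1.67, Nrp2 by 1.58 and Kdr by 0.93. Markers of vessel type and growth moved in the same comparison with first culture. Sinusoidal markers were higher in EC in vivo for 8 of 8 tested (median log2 difference 7.71), with sums of 16156 to 22326 FPKM in vivo and 407 to 1195 FPKM in first culture. Arterial markers were lower for 4 of 9 and higher for 0, and proliferation genes were lower for 10 of 10. Their part in the receptor values was not tested.

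The ligands of EC depended on which culture was the measure. Against first culture none of the 4 was called, with Vegfa at -0.91 ± 0.50, Vegfb at 0.15 ± 0.35, Vegfc at -0.44 ± 0.93 and Pgf at -1.64 ± 0.86. The libraries of the compared groups did not overlap for Vegfa and Pgf. Both were called when all 8 groups shared the spread (adjusted p = 0.0417 for Vegfa and 0.0318 for Pgf). Pgf was also called with the compared groups alone in the fit (adjusted p = 0.0288). Against EC alone all 4 were called: Vegfa was higher in vivo by 1.05 (adjusted p = 2.6e-07) and Vegfc by 1.00 (adjusted p = 0.000114), while Vegfb was lower by -1.201 (adjusted p = 1.16e-09) and Pgf by -3.28 (adjusted p = 2.02e-12). Vegfa, Vegfb and Vegfc thus changed sign between the 2 cultures. Without first-culture EC replicate 3, Vegfb was -0.34 and Vegfc 0.59, neither called. Without the 3 libraries that carry Xist, which leaves 1 first-culture EC library, Vegfb was -0.73. Vegfc was -1.70 without replicate 2 (adjusted p = 0.0336). Pgf was called when stroma replicate 1 or 2 of the first culture, which share the estimate of the spread, was left out (adjusted p 0.0187 to 0.0499).

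In stroma 6 of 9 members were called, 5 higher and 1 lower in vivo, where 55.4% of all tested genes were called (24% higher, 31.4% lower). The median of all tested genes was -0.15 as deposited and 0.05 after trimmed-mean scaling, and 56.5% of the calls were higher after that scaling, against 43.3% as deposited. Vegfc was higher by 6.15 ± 0.93 (69.8-fold of the means) and Pgf by 4.39 ± 0.86 (10.96-fold). Nrp2 was higher by 2.53 ± 0.81, Vegfa by 1.395 ± 0.50 (884, 777 and 707 FPKM in vivo, against 244, 367 and 296 FPKM in first culture) and Nrp1 by 1.13 ± 0.32. Flt1 was lower by -2.18 ± 0.27, with 2 of 3 in vivo libraries listed at 0 and 2.82 to 5.61 FPKM in first culture. The Vegfa call was lost with any of 9 libraries left out, that is each in vivo library of either cell type and each first-culture stromal library (adjusted p 0.05 to 0.0975). The Nrp2 call was lost without stroma replicate 2 or 3 of either setting (adjusted p 0.0575 to 0.076). Kdr, Flt4 and Vegfb did not pass. Vegfb, at -0.89 ± 0.35, had an adjusted p of 0.0513 and was called under several alternatives, among them without first-culture EC replicate 1 or 3 (adjusted p 0.00178 to 0.00707). Kdr (-1.27 ± 0.57), at most 3.06 FPKM in first culture, was called when either of the same 2 libraries was left out (adjusted p 0.00417 to 0.0444). Without the 3 libraries that carry Xist, Vegfb (-0.86, adjusted p = 0.00021), Kdr (-1.01, adjusted p = 0.00909) and Flt4 (-2.31, adjusted p = 0.0367) were called. Against stroma alone, Vegfc was higher in vivo by 5.83, Pgf by 5.23, Vegfa by 1.69 and Nrp1 by 1.10, all called. Nrp2 turned, higher in vivo than in first culture and lower than in stroma alone (-1.22, adjusted p = 3.01e-07).

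Markers of stromal identity also moved between stroma in vivo and first-culture stroma. Of 14 stromal markers, 10 were higher and 1 lower in vivo (median 6.62), with sums of 171721 to 208778 FPKM in vivo and 3837 to 13300 FPKM in first culture. The bone matrix genes Ibsp and Bglap averaged 10340 and 26380 FPKM in vivo, and in first culture Ibsp was listed at 0 in all 3 libraries and Bglap averaged 4.71 FPKM. Acta2, the actin of smooth muscle, averaged 24.04 FPKM in vivo and 1087 FPKM in first culture. The compared stromal libraries thus differed widely in these markers, and their part in the changes of Vegfc and Pgf was not tested.

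The in vivo libraries held transcripts of other cells as well. Granulocyte markers summed to 1548 to 3345 FPKM in stroma in vivo and to at most 6.90 FPKM in first-culture stroma, and to 269.5 to 399.9 FPKM in EC in vivo and at most 6.60 FPKM in first-culture EC. Megakaryocyte markers summed to 48.8 to 255 FPKM in stroma in vivo and 10.2 to 28.4 FPKM in first-culture stroma. Stromal markers summed to 1807, 1678 and 2092 FPKM in EC in vivo, against 2374, 288 and 3078 FPKM in first-culture EC, so 2 of the 3 culture libraries were above every in vivo one. Gene by gene the direction was the opposite, with 8 of 14 called higher in EC in vivo and 0 lower (median log2 difference 1.93). Over all tested genes 23.6% were higher and 29.8% lower. None of the 14 was listed at 0 in all 3 EC in vivo libraries, and 7 were in first-culture EC. Their part in the VEGF values was not tested. The endothelial sum in stroma in vivo was 132 to 157 FPKM and the 3 receptor kinases together were at most 1.76 FPKM there.

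The difference between in vivo and first culture itself differed between EC and stroma for 6 of 9 members, where 33.5% of all tested genes were called (16.4% higher, 17.1% lower). Flt4 (6.70 ± 1.196), Kdr (3.67 ± 0.80) and Flt1 (3.63 ± 0.39) had a more positive change in EC than in stroma. Vegfc (-6.59 ± 1.31), Pgf (-6.03 ± 1.21) and Vegfa (-2.31 ± 0.71) had a more positive change in stroma than in EC. The Vegfa call was lost with any of 7 libraries left out, that is each in vivo library and first-culture stroma replicate 3 (adjusted p 0.0536 to 0.0683), and was -1.54 (adjusted p = 0.000746) without first-culture EC replicate 3. Against the cultures alone the 6 kept their sign and their call, at 3.12 for Flt4, 0.70 for Kdr, 3.69 for Flt1, -4.83 for Vegfc, -8.51 for Pgf and -0.65 for Vegfa. Vegfb (1.04 ± 0.49) and Nrp1 (-0.14 ± 0.45), not called against first culture, turned to -0.34 and 0.57 and were called against the cultures alone. Nrp2 (0.02 ± 1.15) was called at 2.80 against the cultures alone. Its difference was 2.78 without the 3 libraries that carry Xist, which leaves 1 first-culture EC library.

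Genes around the VEGF axis were read from lists of textbook members. Their counts stand against the calls over all tested genes: 28.3% higher and 20.3% lower with HSPC in EC, 25.6% and 35.4% in stroma, 23.6% and 29.8% in vivo in EC, and 24% and 31.4% in stroma. Hypoxia-inducible genes, the class to which Vegfa belongs, rose with HSPC in 20 of 20 cases in EC (median log2 difference 1.49, against 0.02 over all tested genes) and in 20 of 20 in stroma (median 2.77, against -0.04). In EC the largest were Ankrd37, with 247 FPKM with HSPC and 19.1 FPKM alone, Bnip3, a mitophagy receptor, with 563 and 54.5 FPKM, and the glycolytic enzyme Hk2, with 60.2 and 6.44 FPKM. In stroma the oxygen sensor Egln3 had 712 FPKM with HSPC and 12.7 FPKM alone. The part of hypoxia in the Vegfa values was not tested. Vhl, which marks HIF subunits for destruction, rose in EC by 1.59 ± 0.08 and in stroma by 1.32 ± 0.08. Hif1a rose by 0.58 ± 0.06 in EC and 0.64 ± 0.06 in stroma. Epas1 (HIF-2 alpha) fell in EC by 0.81 ± 0.10 and rose in stroma by 1.204 ± 0.102. Its stromal levels were low, at 6.01 FPKM with HSPC and 2.02 FPKM alone.

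In vivo the same list and Vegfa moved in opposite directions in stroma, and any link between them was not tested. Of its 20 genes, 13 were lower and 3 higher in stroma in vivo than in first culture (median -1.80, against -0.15 over all tested genes), while Vegfa was higher. In EC in vivo 8 were lower and 2 higher (median -0.78, against -0.09). First-culture stroma replicate 1 had the highest mean of the list in its group, 8.11 on the log2 scale against 6.38 and 6.08 in replicates 2 and 3, and the lowest Vegfa of the 3. Epas1 was higher in stroma in vivo by 3.72 ± 0.55, with 638 FPKM in vivo and 52.3 FPKM in first culture.

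Known response genes of VEGF signalling were more often higher than lower in vivo in both cell types, and mixed with HSPC. The list holds Pgf, itself one of the members followed here, so its calls are counted again. Pgf was called higher in stroma in vivo, lower in EC with HSPC and higher in stroma with HSPC. Of 16 tested in EC, 11 were higher and 0 lower in vivo than in first culture (median 3.25), among them Egr3, Nr4a1 and the tip-cell gene Esm1, which had 41.8 FPKM in vivo and 0.91 FPKM in first culture. Esm1 was lower in EC in vivo than in stroma in vivo, which averaged 2242 FPKM. In stroma 7 of 16 were higher and 2 lower in vivo than in first culture (median 0.58). Nr4a1 averaged 1032 FPKM in EC in vivo and 33.4 FPKM in first-culture EC, and 1396 FPKM in stroma in vivo and 31.7 FPKM in first-culture stroma. With HSPC, 4 of 15 tested rose and 8 fell in EC (median -0.65). Egr3 had 8.39 FPKM in EC with HSPC and 36.5 FPKM in EC alone, Nr4a1 54.3 and 214 FPKM, and Kcne3 was listed at 0 in all 3 libraries with HSPC and averaged 7.85 FPKM alone. In stroma the list was split, with 5 rising and 6 falling of 15 with HSPC. Its largest rises there were Plvap, the protein of fenestral diaphragms, with 55.5 and 3.33 FPKM, and Apln, with 578 and 89.6 FPKM. Whether VEGF signalling had a part in any of these changes was not tested.

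Genes of signal transduction below the receptors were split as well. With HSPC, 8 of 35 tested rose and 12 fell in EC, and 15 rose and 11 fell in stroma. The kinase Map2k1 rose in both, with 253 and 119 FPKM in EC with HSPC and EC alone, and 341 and 163 FPKM in stroma with HSPC and stroma alone. In vivo 12 of 37 were higher and 5 lower in EC, and 4 higher and 16 lower in stroma, each against first culture. The small heat shock protein Hspb1 was the largest in EC, with 585 FPKM in vivo and 6.98 FPKM in first culture. Among partners and brakes of the receptors, 3 of 14 rose and 5 fell in EC with HSPC, and 5 were higher and 4 lower in EC in vivo. The integrin subunits Itgav and Itgb3, which pair into a receptor that associates with Kdr, rose in EC with HSPC by 1.19 ± 0.05 and 0.89 ± 0.07, and in stroma by 0.63 ± 0.05 and 2.18 ± 0.07. Robo4, an endothelial guidance receptor, had 1422 FPKM in EC in vivo and 35.6 FPKM in first-culture EC.

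Among proteins that release or activate the ligands, both partners in the processing of Vegfc were highest in stroma in vivo. Ccbe1, needed to process Vegfc, had 0.72, 0.83 and 1.31 FPKM in EC in vivo, against 201, 156 and 173 FPKM in stroma in vivo, and at most 27.8 FPKM in any cultured stromal library. Its partner protease Adamts3 had 6.50, 6.82 and 7.61 FPKM in stroma in vivo and was listed at 0 in every cultured stromal library. That list also holds Vash1 and a further VEGF ligand gene, Figf. Of its 12 genes, 6 were higher and 3 lower in stroma in vivo than in first culture. In EC the list gave 5 rises and 3 falls of 11 with HSPC. Ctgf, which binds Vegfa, fell, with 81.9 FPKM in EC with HSPC and 314 FPKM in EC alone. Adamts1 rose in EC, with 1131 and 476.5 FPKM. In stroma Ctgf rose, with 481 FPKM with HSPC and 144 FPKM alone.

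Likeness across the 24 libraries was ranked by Pearson r of log2(FPKM + 1) over 12264 genes, as a description without a test, since libraries of a group share their source. Kdr was most like Ushbp1 (r = 0.995), the VE-cadherin gene Cdh5 (0.991) and Sox18 (0.99). Flt1 was most like Rasip1 (0.981), Egfl7 (0.977) and Tjp1 (0.976). Flt4 was most like Pigm (0.966), Casp8 (0.962) and Bik (0.96), which are not known as endothelial genes. The ligands had weaker matches, with a highest r of 0.88 for Vegfa (Slc22a21), 0.921 for Vegfb (Myo9b), 0.932 for Vegfc (Sptb) and 0.902 for Pgf (Ret). The highest r was 0.922 for Nrp1 (Mgst1) and 0.89 for Nrp2 (Ankrd16).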

How the data were processed

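PolyA RNA of bone marrow EC and stroma from C57BL/6J mice was prepared with Trizol and sequenced as paired ends of 51 bases, per the labels. FPKM values per gene were made and deposited by the authors; TopHat, Cufflinks and the build mm9 are named, without versions, in the submitters' processing notes. Library totals exceed those of plain FPKM, so a further scaling is possible but not stated. FPKM to 2 decimals gave no read counts, so depth and counting error are unknown, and no count test was used. Groups were taken from the titles. Values were tested as log2(FPKM + 1), a scale that understates changes of low genes, with limma 3.58.1 in R 4.3.3 (lmFit, eBayes with a trend) in 2 fits of 12 libraries: in vivo with first culture, and HSPC with alone. The first tested 14904 and the second 14017 genes, after dropping genes that reached 1 FPKM in fewer than 3 libraries. From these, 10 comparisons were drawn, 2 of them interactions. P-values were adjusted by Benjamini-Hochberg across the genes of each fit, with a threshold of 0.05. The scripts were tested on simulated data.

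The members, the 20 gene lists (245 of 246 entries found) and the tests were chosen with earlier results of these data known. From each list, the rule named up to 3 called genes with the largest difference, if the groups did not overlap and the larger mean reached 5 FPKM; some further list members are named for their known role (Hif1a, Epas1, Vhl, Itgb3, Itgav, Akt1, Adamts3, Figf and semaphorins), chosen after their values were seen where the rule does not name them. Samples with the same replicate number did not deviate together in any comparison (all 3 correlations above 0.1 in none), so numbers were not taken as pairs. Alternatives were a pseudocount of 0.1, filters, trimmed-mean scaling, quantile normalization, other sets of groups in the fit, weights, the replicate number as a block, the cultures alone as the cultured group, and each library left out. The fit without the Xist libraries was added after seeing the data. Figures were drawn with matplotlib 3.10.9. Isoforms of Vegfa and soluble Flt1 cannot be seen in values per gene.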

Additional observations from a re-analysis of the deposited data

Results flagged for a closer look

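Changes that differed between EC and stroma by the test of the difference itself are listed here as the EC change minus the stromal change on the log2(FPKM + 1) scale. With HSPC against alone, the differences were -0.51 for Vegfa, -1.66 for Pgf, -1.13 for Kdr, 0.41 for Flt4, 0.38 for Nrp1 and 2.39 for Nrp2. Of all tested genes 57.0% were called for this difference, and with all 8 groups in the fit 0 of the 9 members were. For Kdr and Flt4 the stromal libraries are near 0, and the Flt4 difference turned to -0.38 with a pseudocount of 0.1. In vivo against first culture, the differences were -2.31 for Vegfa, -6.59 for Vegfc, -6.03 for Pgf, 3.67 for Kdr, 3.63 for Flt1 and 6.70 for Flt4. Of all tested genes 33.5% were called for that difference. The Vegfa call there was lost with any of 7 libraries left out.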

How the results depend on the processing

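Of 1942 values of single members under alternatives, 1792 kept their direction and their side of the threshold, 73 lost and 41 gained a call, and 36 changed sign. The number of members called moved by over 1.5 times in 5 comparisons. EC against stroma in first culture gave 2 with the compared groups alone in the fit. HSPC against alone with all 8 groups in the fit gave 3 in EC, 3 in stroma and 0 for their difference, where the wider spread of the first cultures enters. EC in vivo gave 9 (7 higher, 2 lower) with the cultures alone as the cultured group, and 3 to 6 with each library left out. With the cultures alone, the reversed values were 1.05 for Vegfa, -1.20 for Vegfb and 1.00 for Vegfc in EC, 0.23 for Kdr, 0.66 for Flt4 and -1.22 for Nrp2 in stroma, and -0.34 for Vegfb and 0.57 for Nrp1 in the difference between cell types; the cause was not tested. A pseudocount of 0.1 turned the difference between cell types with HSPC to -0.28 for Flt1 and -0.38 for Flt4. Trimmed-mean scaling turned Nrp2 to -0.037 for EC against stroma in vivo and to -0.042 for the in vivo difference, and Vegfb to -0.023 for the HSPC difference; quantile normalization turned Nrp2 to -0.13 and -0.22. Leaving out the 3 libraries that carry Xist keeps 1 first-culture EC library, assumed to vary like the other groups. Nrp2 was then -2.70 for EC against stroma in first culture, and Vegfb -0.73 for EC in vivo.

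Leaving out each library in turn also reversed members that were not called. Nrp2 ran from -0.69 to 1.24 for EC against stroma in first culture, from -0.015 to 0.13 in vivo and from -1.16 to 0.77 for the in vivo difference. Nrp1 ran from -0.38 to 0.27 for that difference, and Vegfb and Vegfc from -0.34 to 0.59 and from -1.70 to 0.59 for EC in vivo. With HSPC, Vegfb ran from -0.049 to 0.037 for EC against alone and from -0.053 to 0.058 for EC against stroma, Vegfc from -0.21 to 0.02 in stroma, and Flt1 from -0.018 to 0.296 for the difference.

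With the replicate number as a block, the members called numbered 8 for HSPC in EC, 7 for the HSPC difference, where Vegfc was added (adjusted p = 0.0492), and 6 for EC against stroma in vivo; the other counts did not move. Over all genes, calls moved by over 1.5 times for EC against stroma in first culture (5765; 2801 with the compared groups alone, 3546 with weights), for HSPC in EC (6813; 1852 with all 8 groups), in stroma (8551; 3591) and their difference (7996; 2276), and for the in vivo difference (5000; 7654 with all 8 groups, 11283 with the cultures alone). Of the calls for HSPC in EC, 58.2% were higher, 45.5% after quantile normalization and 68.5% with all 8 groups. Depth is unknown, so values near 0 cannot be told from failed estimates.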

Other observations

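Figf, which codes for VEGF-D, a further ligand of Flt4, was stromal in all 4 settings. In EC it averaged 5.27 FPKM with HSPC, 9.03 alone, 1.69 in vivo and 9.03 in first culture. In stroma it averaged 117 ± 40.04 FPKM with HSPC, 186 ± 2.57 alone, 14.2 ± 1.86 in vivo and 64.5 ± 34.3 in first culture (SD, n = 3 each). Its order over the stromal groups differed from that of Vegfc, which had 495 FPKM in vivo and under 8 FPKM as the mean of each cultured group.

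Some semaphorins, the other ligands of the neuropilins, also differed between the cell types. Sema3c was listed at 0 in all EC in vivo libraries, and had 603 FPKM in stroma with HSPC, 424.5 in stroma alone and 8.79 in stroma in vivo. Sema3g had 65.8 FPKM in EC with HSPC, 238 in EC alone and 352 in EC in vivo, and did not exceed 1.17 FPKM in any stromal library. Sema3a rose in EC with HSPC by 2.16 ± 0.08, with 67.3, 69.7 and 70.5 FPKM with HSPC, against 14.99, 12.7 and 16.5 FPKM alone. Its higher cell type changed with the setting. In vivo it averaged 293 FPKM in EC and 3.70 FPKM in stroma. In first culture it averaged 14.2 ± 19.7 FPKM in EC and 183 ± 206 FPKM in stroma (SD, n = 3 each). Plxnd1, a plexin that passes on semaphorin signals, averaged 676 to 1178 FPKM over the 4 EC groups and 15.4 to 233 FPKM over the 4 stromal groups.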
